A study of Mus musculus with 6 samples.

Results

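Nectins, Cadm1 and the junctional adhesion molecules are cell surface proteins of the immunoglobulin superfamily through which cells hold on to, and recognise, one another. The expression of 10 of their genes (Nectin1, Nectin2, Nectin3, Nectin4, Pvr, Cadm1, F11r, Jam3, Afdn and Alcam) was compared between PD-L1 KO and control DC2.4 cells. They were taken by gene symbol from a read count table of 31205 genes, and all 10 were found. DC2.4 is an immortalised mouse dendritic cell line. The PD-L1 KO group was 3 libraries of its derivative with genotype PD-L1 knockout, and the control group was 3 libraries of DC2.4 cells with genotype Control. Cd274 is the gene of PD-L1, which restrains T cells by binding PD-1. No drug, time point or culture condition is named for either group. The labels do not say whether the knockout line is 1 clone, nor whether each library had a culture of its own. All p-values therefore measure only the spread between libraries, and that spread may be technical.

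The 10 genes were selected on the counts of this same comparison, with its results known, among them the absence of Nectin3 reads and the lower Cadm1 level in knockout libraries. Their differences between the groups are therefore a description and carry no test. Tests are given for genes of other junction proteins, from lists that were also made with earlier results known. Levels are given as CPM, a gene's count relative to its library's total, with TMM factors that correct the totals for composition, and a log2 fold change is knockout over control.

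Nectins bind nectins on the neighbouring cell, and inside the cell their tails bind afadin, the product of Afdn, which ties them to actin. In epithelia they help to build adherens junctions together with cadherins. In the immune system Nectin2 and Pvr are ligands of receptors on T cells and natural killer cells, among them CD226, which activates, and TIGIT, which inhibits. Cadm1 is a nectin-like molecule that binds CRTAM on activated T cells and marks the cross-presenting class of dendritic cells. F11r encodes JAM-A, and Jam3 encodes JAM-C. Both are found at tight junctions and on leukocytes, where they bind integrins. Alcam encodes the ligand of CD6 on T cells.

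The promoters of a few genes are shown because Nectin3 reads were absent from every knockout library, while Alcam, on the same chromosome, and Nectin2, of the same family, were read in every library. Each window runs from 250 bases before to 50 bases after the gene's start in RefSeq (GRCm38.p6), on the gene's own strand, 5′ to 3′. Capitals mark the GC box (GGGCGG or, on the other strand, CCGCCC) and the cAMP response element (TGACGTCA, the same on both strands). The motifs do not overlap in these windows.
Nectin3 (chr16:46496918-46497217, minus strand): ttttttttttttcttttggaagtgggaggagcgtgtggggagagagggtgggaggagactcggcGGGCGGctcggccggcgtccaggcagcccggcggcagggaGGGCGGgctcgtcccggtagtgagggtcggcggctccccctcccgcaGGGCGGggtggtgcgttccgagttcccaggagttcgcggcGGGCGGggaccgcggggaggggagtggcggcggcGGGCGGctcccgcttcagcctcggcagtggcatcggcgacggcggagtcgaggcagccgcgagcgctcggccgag
Alcam (chr16:52453032-52453331, minus strand): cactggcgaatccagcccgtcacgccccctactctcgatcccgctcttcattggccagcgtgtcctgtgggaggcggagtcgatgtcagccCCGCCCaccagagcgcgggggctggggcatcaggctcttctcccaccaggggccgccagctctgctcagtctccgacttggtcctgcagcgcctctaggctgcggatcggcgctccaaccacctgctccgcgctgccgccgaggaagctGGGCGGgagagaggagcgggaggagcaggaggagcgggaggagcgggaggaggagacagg
Nectin2 (chr7:19749524-19749823, minus strand): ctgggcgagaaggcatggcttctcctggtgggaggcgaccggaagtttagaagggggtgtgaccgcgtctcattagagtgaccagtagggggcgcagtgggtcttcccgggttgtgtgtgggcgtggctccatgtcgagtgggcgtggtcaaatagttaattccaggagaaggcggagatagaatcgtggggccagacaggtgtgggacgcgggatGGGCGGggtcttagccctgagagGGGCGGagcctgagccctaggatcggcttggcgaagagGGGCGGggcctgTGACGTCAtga
The Nectin3 window held 5 GC boxes and 40 CpG dinucleotides, more CpG than 96.1% of the 32841 promoter windows of the RefSeq table. The Alcam window held 2 GC boxes and 25 CpG, and the Nectin2 window 3 GC boxes, 20 CpG and 1 cAMP response element. Many CpG were not particular to Nectin3. The Afdn window, not shown, held 62 CpG, more than 99.95% of windows, and 4 GC boxes, and Afdn was read in every library. The F11r window held 19 CpG and 1 GC box, and the Nectin4 window 3 CpG and 0 GC boxes. Of all windows, 35.7% held a GC box and 1.79% the response element, and the median window had 7 CpG. The GENCODE gene models of the genes shown reach further upstream than these RefSeq starts. They reach base 46498525 for Nectin3, 52454074 for Alcam and 19750483 for Nectin2. RefSeq windows were at hand for 6 of the 10 genes, and the sequence alone says nothing about which factor is bound.

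The 6 libraries held between 10918498 and 23250065 counts. Of the 10 genes, 8 had enough reads for the fit across 11453 genes, and Nectin4 and Jam3 did not. Over all genes tested, 25.3% passed the edgeR quasi-likelihood test at an adjusted p under 0.05, with 1353 higher and 1543 lower in knockout. Of the 8 genes, 2 were past that threshold, both lower (Nectin3 and Cadm1), and 0 higher. Since the genes were chosen with this comparison known, nothing is read from that count. Their median log2 fold change was -0.04, beside 0.01 over all genes tested. Scaling by total counts alone moved that overall median to -0.14, with 667 calls higher and 2212 lower. Offsets that take out how a library's counts vary with exon length and GC content moved it to 0.13, with 2062 higher and 957 lower. The number of calls depended on which library was left out. It was 1169 higher and 1306 lower without control library 1, and 166 and 472 without control library 2. It was 666 and 1117 without control library 3, and 2346 and 2616 without knockout library 1. Without knockout library 2 it was 399 and 645, and without knockout library 3 it was 540 and 682.

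Cd274 transcripts were not lower in the libraries labelled knockout, at 7.70, 5.44 and 8.11 CPM in knockout libraries 1, 2 and 3, against 4.65, 5.87 and 6.83 CPM in control libraries 1, 2 and 3. A gene's total count does not reveal an edit within its coding sequence, so which libraries are knockout is known from the labels alone. The leukocyte marker Ptprc (180 to 206 CPM in knockout, 217 to 256 in control), Itgax (25.9 to 79.7 and 51.5 to 68.6) and Irf8 (40.8 to 48.5 and 41.3 to 45.1) were read in every library. Of the other dendritic cell markers, Clec9a and Cd209a had 0 counts throughout, and Flt3, Ccr7, Dpp4 and H2-Ab1 were at or near 0. Batf3 (5 counts in knockout and 7 in control over the group), Xcr1 (7 and 15) and H2-Aa (1 and 18) were also too low to test. Of 7 dendritic cell markers tested, 1 was lower and 0 higher in knockout: Zbtb46, a transcription factor gene of classical dendritic cells, at 4.28 to 5.28 CPM in knockout and 5.91 to 8.71 in control (-0.72, edgeR adjusted p = 0.049). Control library 2 stood apart in 10 fibroblast and stromal markers, which summed to 217 CPM there, mainly Col1a1 and Fn1, against at most 0.269 CPM in knockout and at most 0.537 in the other control libraries. Dcn, Lum and Thy1, which mark fibroblasts, were at 0 in all libraries. Epithelial, endothelial and lymphocyte markers summed to at most 0.403, 0.672 and 0.755 CPM in knockout and at most 0.237, 0.83 and 0.895 CPM in control. Of 7 macrophage markers tested, 4 were lower and 0 higher in knockout, among them Lyz2, Csf1r and Fcgr1. That list of 9 summed to 758 to 1090 CPM in knockout and 978 to 1232 CPM in control. The part of these differences in the values below was not tested. In these bulk samples, fewer cells with a transcript and less of it per cell cannot be told apart.

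Nectin3, which pairs with Nectin1 and Nectin2 across cell contacts, was the gene with no reads in knockout cells. It lies on chromosome 16 (46387706 to 46498525, minus strand, mm10). Knockout libraries 1, 2 and 3 had 0, 0 and 0 counts, against 90, 156 and 225 counts in control libraries 1, 2 and 3. In CPM the control libraries stood at 8.05, 9.24 and 8.99, a mean of 8.76 ± 0.63 (SD, n = 3). No knockout library held a single read, and the controls lay close together. A floor of 3 counts over the knockout group is 0.0622 CPM, so the level was at least 141-fold lower in knockout, a limit that covers counting error only. Nectin3 was at a modest level in control cells, above 23.0% of the genes tested by CPM.

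The nearest tested genes on either side of Nectin3 were read in knockout cells, and no annotated gene of the table overlapped it. On the side toward the start of the chromosome, Gm4737, a predicted gene 233 kb away, had 2.19 to 3.03 CPM in knockout and 2.06 to 2.84 in control (log2 fold change 0.08, SE 0.30, edgeR adjusted p = 0.864). The next tested gene was Abhd10, a mitochondrial thioesterase gene 645 kb away, with 5 untested genes between it and Gm4737. Abhd10 was higher, at 15.6 to 19.5 CPM in knockout and 7.79 to 10.3 in control (0.88, SE 0.18, edgeR adjusted p = 0.00974). It missed the threshold without control library 2 (adjusted p = 0.0515). Btla, an inhibitory receptor gene 1130 kb away, lay beyond a further 9 untested genes. It was lower, with 1.13, 0.201 and 0.0497 CPM in knockout libraries 1, 2 and 3, against 5.37, 2.79 and 3.84 in control (-3.22, SE 0.71, edgeR adjusted p = 0.0129). Knockout library 1 held most of the Btla reads of its group. Its log2 fold change was -5.02 without that library, -2.58 without knockout library 3 and -3.92 with limma-voom, and it was not called without knockout library 2 (-2.88, edgeR adjusted p = 0.0602). On the other side the nearest tested gene lay 2426 kb off, beyond 9 untested genes. Dzip3 (-0.27), Cip2a (0.16) and Ift57 (0.39) there were not called (edgeR adjusted p = 0.27, 0.421 and 0.0963). Dzip3 was called lower without knockout library 1 (-0.43) and Cip2a higher with the length and GC offsets (0.34).

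The genes whose course over the 6 libraries was nearest to that of Nectin3, by root mean square distance between centred log2 CPM values, were Atp10a (0.146), Creb5 (0.164), Fmnl2 (0.277), Sgk3 (0.322) and Ncs1 (0.364). Atp10a likewise had 0 counts in the 3 knockout libraries, against 6.71 to 10.7 CPM in control. Creb5 differed in scale, with 7.70 to 9.80 CPM in knockout and 711 to 844 CPM in control. Fmnl2, Sgk3 and Ncs1 were at most 0.269 CPM in any knockout library and at least 7.64 CPM in any control library. These genes were picked for this likeness, so it is no test.

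**Figure D1:**
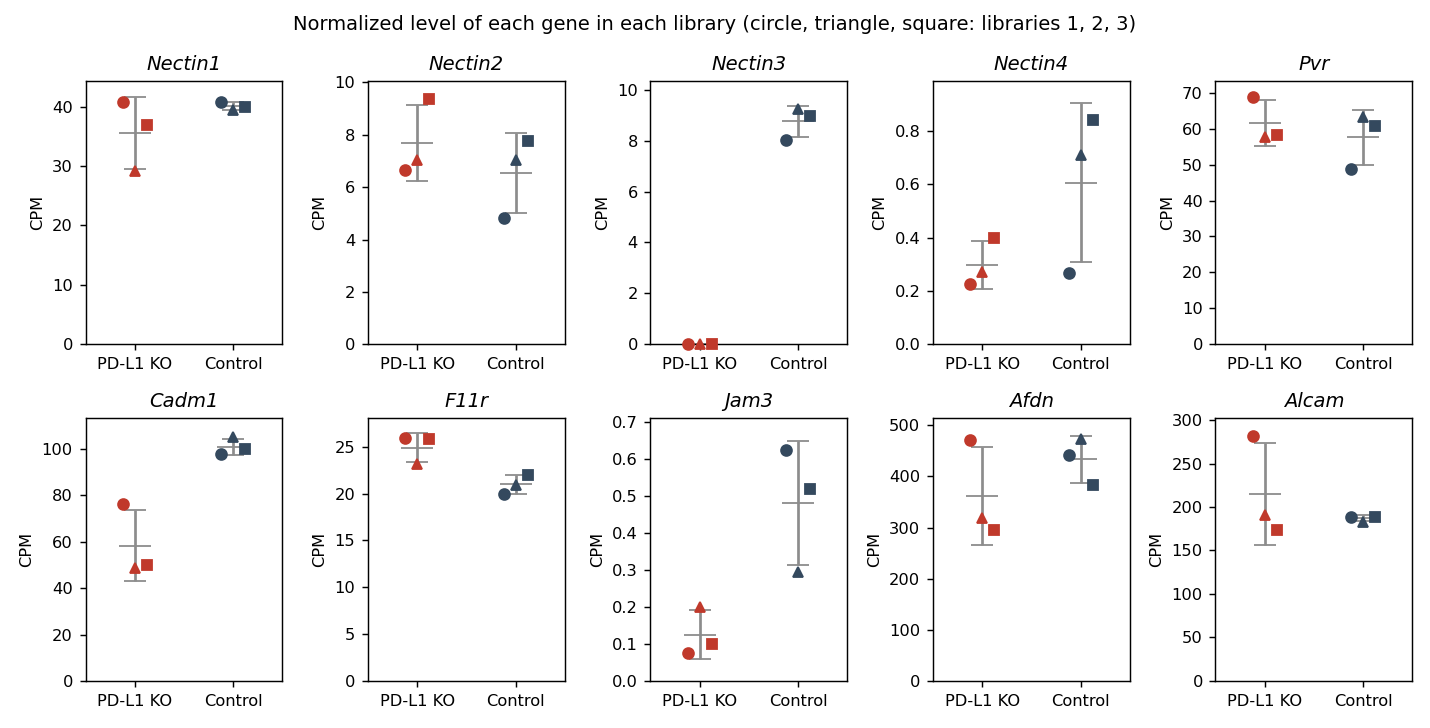
TMM-normalized level (CPM, linear axes from 0) of each of the 10 genes in PD-L1 KO (left) and control (right) libraries, with the group mean and SD in grey. Nectin3 is at 0 in all knockout libraries, Cadm1 and Jam3 are lower and F11r is higher in knockout without overlap, and knockout library 1 is the highest of its group for Cadm1, Afdn, Alcam, Nectin1, Pvr and, narrowly, F11r.

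Nectin1, the family's widest partner and the receptor of herpes simplex virus entry in humans, was the more abundant classical nectin. It had 40.8, 29.1 and 37.0 CPM in knockout libraries 1, 2 and 3, against 40.8, 39.4 and 40.0 CPM in control libraries 1, 2 and 3. The highest knockout library was level with the highest control, and the knockout group spread more widely (a coefficient of variation of 16.8% against 1.75% in control). The log2 fold change was -0.17 (SE 0.15), and it turned to 0.15 with the length and GC offsets, where the median gene stood at 0.13.

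Nectin2, a ligand of CD226, TIGIT and PVRIG in humans, had 6.64, 7.05 and 9.35 CPM in knockout libraries and 4.83, 7.05 and 7.75 CPM in control libraries. The groups overlapped, and library 3 was the highest of each. Its log2 fold change of 0.22 (SE 0.25) was within its error. Nectin4, which is known mostly from epithelia, had 3, 4 and 8 counts in knockout libraries 1, 2 and 3 and 3, 12 and 21 counts in control libraries 1, 2 and 3. These few reads overlapped between the groups and were not fitted. The pooled ratio of knockout to control was 0.458, with an exact 95% counting interval of 0.233 to 0.859 that leaves out the spread between libraries.

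Pvr, the poliovirus receptor homologue and the principal ligand of TIGIT, was the most abundant of the nectin group. It had 68.8, 57.6 and 58.3 CPM in knockout libraries and 48.8, 63.3 and 60.7 CPM in control libraries. Knockout library 1 was the highest and control library 1 the lowest of all, and the other libraries lay within 57.6 to 63.3 CPM. The log2 fold change was 0.09 (SE 0.15), 0.00 without knockout library 1, -0.01 without control library 1 and -0.06 with total counts alone.

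Set side by side per kilobase of exon, Pvr made up 54.0 ± 3.14% of the summed level of Nectin1 to Nectin4 and Pvr in knockout and 48.8 ± 2.51% in control (SD, n = 3 each). Nectin1 followed with 33.7 ± 2.41% in knockout and 37.1 ± 4.06% in control. Nectin2 made up 11.9 ± 2.46% in knockout and 9.66 ± 1.53% in control, and Nectin4 0.43% and 0.822%. Nectin3 had held 3.58 ± 0.08% of that sum in control. The sum itself was 18.6 ± 1.90 CPM per kb in knockout and 19.2 ± 1.69 in control. Nectin3 had held 0.687 CPM per kb in control, less than either SD, so the sum could not show its absence.

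Cadm1 (chromosome 9, 47530173 to 47857637, plus strand, mm10) was lower in knockout. It had 76.1, 48.9 and 50 CPM in knockout libraries 1, 2 and 3, against 98.0, 105 and 99.9 CPM in control libraries 1, 2 and 3. Every knockout library lay below every control library, with knockout library 1 the nearest to them. The means were 58.3 ± 15.4 CPM in knockout and 101 ± 3.53 CPM in control (SD, n = 3 each), a log2 fold change of -0.79 (SE 0.18), or 42.3% lower. Without knockout library 1 the log2 fold change was -1.03, and with the length and GC offsets it was -0.42 (SE 0.13). In that fit the median gene stood at 0.13. The difference was not past the threshold without control library 2, knockout library 2 or knockout library 3 (log2 fold change -0.76, -0.68 and -0.69).

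The genes that followed the course of Cadm1 most closely, by the same distance, were Sash1 and Zfp292 (0.053 each), Xrn1 (0.066), and Ckap5 and Dennd6a (0.067 each). In all 5, knockout library 1 was the highest of its group, as for Sash1, which had 51.6, 33.2 and 33.4 CPM in knockout libraries 1, 2 and 3 and 63.7 to 75.9 CPM in control. As all 5 were picked for their likeness to Cadm1, that likeness is no test.

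F11r (chromosome 1, 171437535 to 171464603, plus strand, mm10), encoding JAM-A, was a little higher in knockout. It had 25.9, 23.2 and 25.8 CPM in knockout libraries and 20, 20.9 and 22.0 CPM in control libraries. The groups did not overlap, and the gap between the nearest libraries was small. Of the 10 genes, 1 was higher (F11r) and 3 were lower (Nectin3, Cadm1 and Jam3) without overlap. Over all tested genes 21.1% were higher and 21.8% lower without overlap, 43% in all, and nothing is read from the count of the 10. The means were 24.9 ± 1.54 and 21.0 ± 1.01 CPM (SD, n = 3 each) in knockout and control, a log2 fold change of 0.25 (SE 0.13) that was not past the threshold, and 0.13 with the length and GC offsets, where the median gene also stood at 0.13. With total counts alone it was 0.10.

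Jam3 was scarce, with 1, 3 and 2 counts in knockout libraries 1, 2 and 3 and 7, 5 and 13 counts in control libraries 1, 2 and 3. The control counts were the higher ones in every library, but all were near the limit of detection. The pooled ratio was 0.264, with an exact 95% counting interval of 0.0886 to 0.659 that leaves out the spread between libraries. An antisense gene that overlaps Jam3, Gm48796, had 35 counts in knockout and 61 in control. The strand setting of the counting is not given in the sources used here, so the reads of these genes may not be separable.

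Afdn, the afadin gene (chromosome 17, 13760539 to 13906150, plus strand, mm10), had the highest level of the 10 genes, above 97.5% of tested genes in control by CPM. It had 471, 318 and 296 CPM in knockout libraries 1, 2 and 3, against 442, 474 and 383 CPM in control libraries 1, 2 and 3. Knockout library 1 lay among the controls, whereas knockout libraries 2 and 3 lay below them. The log2 fold change was -0.26 (SE 0.19), -0.50 without knockout library 1, and 0.19 (SE 0.13) with the length and GC offsets. The sign of the Afdn value therefore depended on that correction, in a fit where the median gene stood at 0.13. Tcte2, a gene on the opposite strand that overlaps Afdn, had 138 counts in knockout and 105 in control, few beside the 16939 and 22524 counts of Afdn.

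Alcam (chromosome 16, 52248996 to 52454074, minus strand, mm10) had 282, 191 and 173 CPM in knockout libraries 1, 2 and 3, against 188, 183 and 189 CPM in control libraries 1, 2 and 3. Control libraries differed little (a coefficient of variation of 1.81%), and the knockout group spread around them (27.2%) because library 1 was high. The log2 fold change was 0.21 (SE 0.18), -0.04 without knockout library 1 and 0.43 with the length and GC offsets, where the median gene stood at 0.13.

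**Figure D2:**
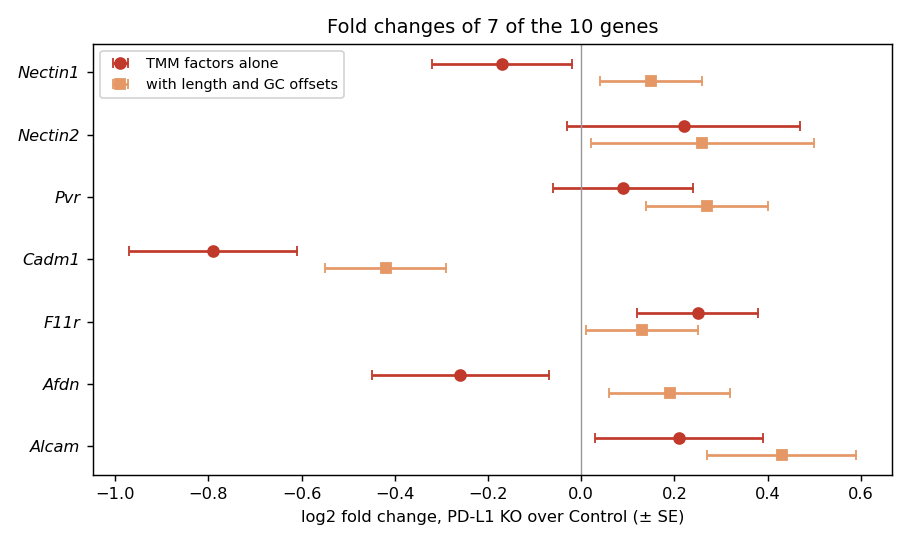
Log2 fold change (knockout over control, bars show the SE) of 7 genes with TMM factors alone (circles) and with the exon length and GC offsets (squares). Nectin3, at 0 in knockout, and the unfitted Nectin4 and Jam3 are not drawn. Nectin1 and Afdn lie on opposite sides of 0 in the fits, and Cadm1 lies below 0 in both.

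Levels of different genes were compared as CPM per kilobase of exon. In knockout the order was Afdn (35.4 ± 9.33), Alcam (30.3 ± 8.22), Pvr (10.1 ± 1.03), F11r (9.37 ± 0.58), Nectin1 (6.31 ± 1.06), Cadm1 (5.59 ± 1.48), Nectin2 (2.20 ± 0.42), Nectin4 (0.0795), Jam3 (0.0392) and Nectin3 (0). In control it was Afdn (42.4 ± 4.55), Alcam (26.2 ± 0.47), Cadm1 (9.67 ± 0.34), Pvr (9.41 ± 1.27), F11r (7.87 ± 0.38), Nectin1 (7.09 ± 0.12), Nectin2 (1.87 ± 0.44), Nectin3 (0.687 ± 0.05), Nectin4 (0.162) and Jam3 (0.15). Neighbours that overlapped between libraries in knockout were Afdn with Alcam, Pvr with F11r, Nectin1 with Cadm1, and Nectin4 with Jam3. In control they were Cadm1 with Pvr, Pvr with F11r, and Nectin4 with Jam3. Cadm1 thus stood below Nectin1 in knockout and above Pvr in control by mean, and Nectin3 was the gene that left the detectable range.

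**Figure D3:**
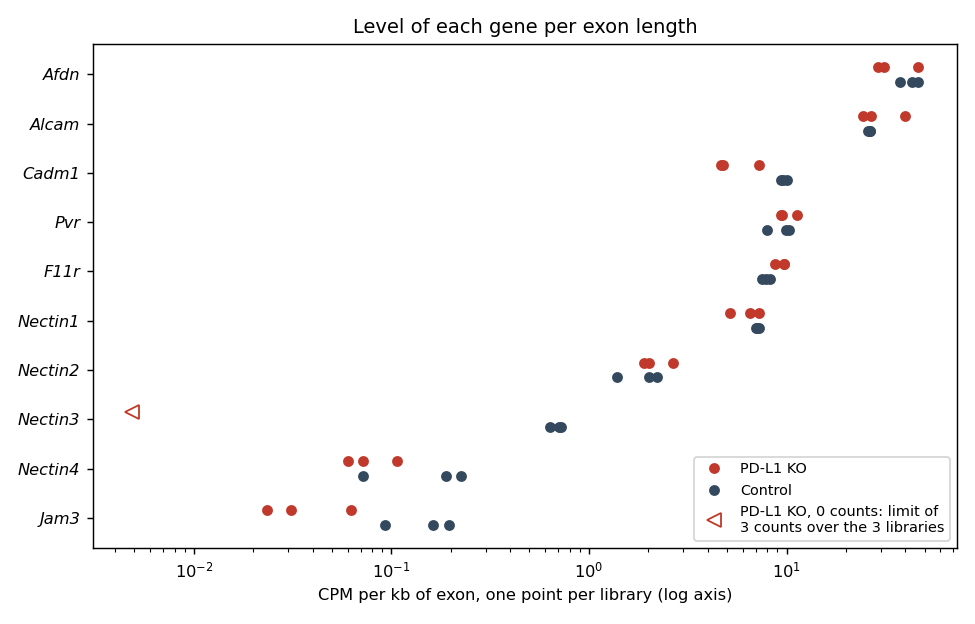
Level per kilobase of exon (CPM per kb, log axis) of the 10 genes, 1 point per library, knockout above control. The open triangle is the limit set by 3 counts over the knockout libraries for Nectin3. Afdn and Alcam lie highest, a middle group lies between Nectin2 and Cadm1, and Nectin4 and Jam3 lie lowest in control.

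Knockout library 1 differed from knockout libraries 2 and 3 in several of these genes. Its CPM was 1.55 times the mean of the other knockout libraries for Alcam, 1.54 for Cadm1, 1.53 for Afdn, 1.24 for Nectin1, 1.19 for Pvr, 1.06 for F11r and 0.81 for Nectin2. Alcam, Cadm1 and Afdn have exons of 7121, 10440 and 10223 bases in all, and F11r and Nectin2 have 2663 and 3494. Among all tested genes the same ratio had a median of 0.872 for exon lengths up to 2000 bases (1596 genes), 0.923 up to 4000, 1.02 up to 7000 and 1.17 above 7000 (2617 genes). The ratios of Alcam, Cadm1 and Afdn were above the upper quartile of the longest class (1.42). The median log2 fold change of all tested genes likewise ran from 0.38 in the shortest class to -0.32 in the longest. The part of transcript length in the values of the 10 genes was not tested beyond the offsets given beside each.

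**Figure D4:**
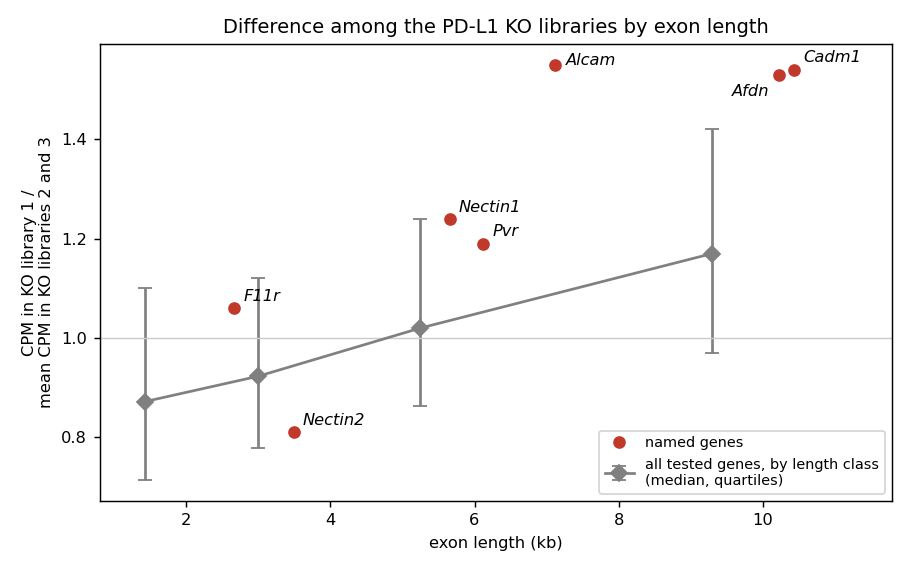
Ratio of the CPM in knockout library 1 to the mean CPM in knockout libraries 2 and 3 against exon length (kb). Red points are 7 of the 10 genes, and grey diamonds with bars are the median and quartiles of all tested genes in each of 4 length classes. Alcam, Cadm1 and Afdn lie near 1.5, and the grey medians go from 0.872 to 1.17.

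The lymphocyte receptors of nectins, Cadm1 and Alcam had few or no reads in both groups. CD226, CD96 and PVRIG, which bind nectins on lymphocytes, had 0 counts of Cd226, Cd96 and Pvrig in every library. Tigit had 2 counts in knockout and 8 in control over the group, Crtam 3 and 9, and the Alcam receptor gene Cd6 8 and 15. Crtam had 1 read in each knockout library and 1, 4 and 4 reads in control libraries 1, 2 and 3. Control library 1, the smallest library, thus had the same count as the knockout libraries. Its CPM (0.0895) was above theirs (at most 0.0755) through its smaller total alone. Tigit and Cd6 overlapped between the groups. All were too low for the fit and were not tested. Of the relatives Cadm2, Cadm3 and Cadm4, only Cadm4 was tested (log2 fold change -0.28, edgeR adjusted p = 0.614).

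The 8 lists named 168 genes of junction partners, of which 167 were analysed here and 99 were tested. Of those 99, 24 were lower and 5 higher in knockout and 70 were not called. That is 29.3% called, beside the 25.3% of all genes, with a median log2 fold change of -0.28 beside 0.01. With the length and GC offsets, 18 were lower and 12 higher, in a fit whose median over all genes was 0.13. Single libraries moved these counts, too. They were 5 higher and 18 lower without control library 1. Without control library 2 they were 2 and 12, and without control library 3 they were 3 and 20. With knockout library 1, 2 or 3 left out, they were 10 and 41, 3 and 13, and 3 and 15. With total counts alone they were 3 and 35. Of the 68 analysed partner genes that were not tested, 19 had 0 counts in every library.

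**Figure D5:**
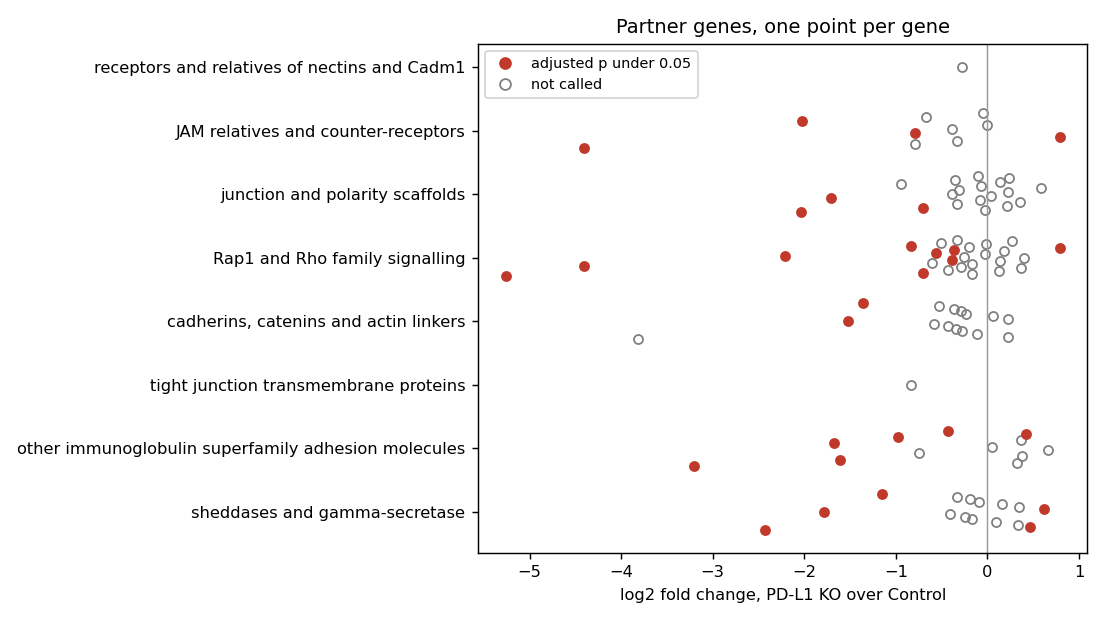
Log2 fold change (knockout over control) of each tested partner gene, by list, with filled points for an edgeR adjusted p under 0.05. Most filled points lie left of 0, and 1 gene each was tested among receptors and relatives and among tight junction transmembrane proteins.

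Among the relatives of the JAMs and their counter-receptors, 3 of 10 tested genes were lower and 1 was higher (median -0.53). The integrin chain Itgal, which forms the LFA-1 receptor of JAM-A and ICAM-1, had 0.377, 0.537 and 0.497 CPM in knockout libraries, against 4.21, 13.2 and 12.8 CPM in control (log2 fold change -4.40, SE 0.49, edgeR adjusted p = 0.000592). Control library 1 was well under the other controls and still above every knockout library. Itga4, the chain of the VLA-4 receptor, fell to 35.4 ± 14.9 CPM in knockout, against 143 ± 19.4 CPM in control (-2.02). Itgav fell to 71.4 ± 0.68 CPM, against 123 ± 6.90 CPM (-0.79, and -0.39 with the length and GC offsets). Cd9, a tetraspanin gene, rose to 1657 ± 67.3 CPM in knockout, against 959 ± 76.0 CPM in control (0.79, SE 0.13, edgeR adjusted p = 0.00404). The common beta chains Itgb1 (-0.00) and Itgb2 (-0.39, edgeR adjusted p = 0.0539) were not called, nor was Itgam (-0.33), which forms the receptor of JAM-C.

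Of the scaffolds that bind nectin, JAM or afadin tails, 3 of 19 tested genes were lower and 0 higher (median -0.08). Cgnl1, encoding paracingulin, fell to 5.13, 8.73 and 9.15 CPM in knockout libraries, against 31.0, 36.0 and 28.3 CPM in control (-2.04, SE 0.22, edgeR adjusted p = 0.000533). Magi3, a membrane-associated guanylate kinase gene, fell too (-1.71, SE 0.31). The scaffold genes Cask (-0.10) and Dlg1 (0.21) were not called.

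Afadin binds Rap1, and nectin contacts act on Rap1, Rac and Cdc42. In that list 8 of 26 tested genes were lower and 1 higher (median -0.28). The GTPases Rap1a (0.40), Rap1b (0.18), Rac1 (0.14) and Cdc42 (0.13) were not called. Rapgef5, a Rap exchange factor, fell to 0.231 ± 0.17 CPM in knockout, against 5.29 ± 0.29 CPM in control (-4.40, SE 0.45, edgeR adjusted p = 0.000376), and was -5.13 without knockout library 3. The Rac exchange factor Tiam1 had 1 count in knockout and 56 in control. The pooled ratio was 0.0196, with an exact 95% counting interval of 0.000489 to 0.114 that leaves out the spread between libraries. The 1 knockout read of Tiam1 lay in knockout library 1, and knockout libraries 2 and 3 had 0. Its relative Tiam2 rose to 32.3 ± 1.72 CPM, against 18.7 ± 0.57 CPM in control (0.79, SE 0.13, edgeR adjusted p = 0.00423), and was 1.45 with the length and GC offsets. Farp2, an exchange factor for Rac and Cdc42, fell to 5.36, 2.55 and 3.73 CPM in knockout, against 25.1, 19.9 and 9.27 CPM in control (-2.21). These libraries did not overlap, with control library 3 the nearest to knockout.

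Among cadherins, catenins and actin linkers, 2 of 15 tested genes were lower and 0 higher (median -0.34). Ctnna1, the alpha-catenin that binds afadin and actin, fell to 49.8, 46.3 and 43.3 CPM in knockout libraries, against 124, 124 and 109 CPM in control (-1.36, SE 0.13, edgeR adjusted p = 0.000235). Vcl, encoding vinculin, fell to 27.0 ± 13.2 CPM, against 77.0 ± 18.3 CPM (-1.52, SE 0.30). The catenins Ctnnb1 (0.06) and Ctnnd1 (-0.11) were not called. Of the classical cadherins, Cdh1, Cdh2, Cdh3 and Cdh5 were too low to test. Cdh11, outside the rule for naming genes, had 10, 4 and 2 counts in knockout libraries and 8, 232 and 11 in control libraries 1, 2 and 3, so its reads lay in the library with the stromal markers (edgeR adjusted p = 0.0538). Of the tight junction transmembrane proteins, Cldn12 alone was tested (-0.83, edgeR adjusted p = 0.0576), and none of the other 16 had more than 15 counts in any library.

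Of 12 tested genes of other immunoglobulin superfamily adhesion molecules, 5 were lower and 1 higher (median -0.19). Icam1, the ligand of LFA-1, fell to 23.3 ± 4.35 CPM in knockout, against 45.8 ± 1.10 CPM in control (-0.98, SE 0.16, edgeR adjusted p = 0.00405). Icam5 fell to 1.23 ± 0.20 CPM, against 3.81 ± 0.54 CPM (-1.61). The low genes Mcam (-1.67) and Cd84, of the SLAM family, were called as well. Cd84 had 4 counts in knockout and 43 in control, and its log2 fold change of -3.20 was -6.71 without knockout library 3. It was not called without control library 2 or knockout library 2 (edgeR adjusted p = 0.082 and 0.0694). Mcam was not called by DESeq2 (adjusted p = 0.0674), with no filter on low counts (0.059), without any 1 of the control libraries (0.0503 to 0.151), or without knockout library 2 (0.0826) or 3 (0.11).

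Adhesion molecules of these families are shed by surface proteases. Of 15 tested sheddase and gamma-secretase genes, 3 were lower and 2 higher (median -0.17). Adam10 (-0.33, edgeR adjusted p = 0.0588) and Adam17 (-0.09), which shed several of these proteins, were not called. Bace1, the beta-secretase, fell to 6.47 ± 2.0 CPM in knockout, against 14.4 ± 2.24 CPM in control (-1.15, SE 0.25), and Psen2, a gamma-secretase catalytic subunit, rose to 74.1 ± 4.66 CPM, against 48.1 ± 4.14 CPM (0.62, SE 0.13). Both were past the threshold except without control library 2 (edgeR adjusted p = 0.0609 and 0.0704). Rhbdf1, a regulator of ADAM17 traffic (-2.43), and the gamma-secretase subunit Aph1b (-1.78) were low, at most 0.597 CPM in knockout and at most 2.19 CPM in control. Rhbdf1 was -3.54 without knockout library 3 and -3.11 with limma-voom, and was not called without control library 1 or 2 or knockout library 2. Aph1b was not called without control library 2 or 3 or knockout library 2 or 3.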

How the data were processed

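TRIzol extraction and KAPA Hyper Prep library construction are named per the labels' protocols. Tools listed per the submitters' processing notes are Trimmomatic 0.39, STAR 2.7.5c, StringTie 2.1.7 with build mm10. How genes were counted, on which annotation and with what strand setting, is not given in the sources used here. The deposited values are whole-number read counts per gene, unscaled.

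Columns were matched to samples by name. Genes passing filterByExpr (11453) were fitted with edgeR 4.0.16 (limma 3.58.1, R 4.3.3): TMM factors, quasi-likelihood F test, two-sided, Benjamini-Hochberg adjustment, threshold 0.05. SE is the absolute log2 fold change over the square root of F. The common dispersion gave a biological coefficient of variation of 17.51%. CPM values use TMM factors and are mean ± SD, n = 3. The 10 genes, the 8 partner lists and the marker lists were chosen with earlier results of these data known. Named are the 10 genes, Cd274, up to 4 called, non-overlapping genes per list by adjusted p, the receptors, the neighbours and the nearest courses. A few uncalled genes were added for context after their values were seen. A few genes counted in the lists are not reported here by name. Positions and exon lengths are from GENCODE M21 (GRCm38, the same build). Of 31205 symbols, 30194 matched directly and 5 through another symbol. No pair of libraries within a group agreed within sampling noise (chi-square per degree of freedom 16.3 to 54.0). The steps were tested on simulated counts. Alternatives were DESeq2 1.42.0 (Wald test; size factors), limma-voom, total-count and upper-quartile scaling, other filters, length and GC offsets (loess, span 0.3), the replicate number as a block, and leaving out each library.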

Additional observations from a re-analysis of the deposited data

How the results depend on the processing

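Nectin3 had 0 counts in every knockout library, which no setting could change. Cadm1, Nectin2 and F11r kept their direction in all 16 alternatives. Nectin1 and Afdn kept it in 14, Alcam in 15 and Pvr in 13 of 16. Nectin1 and Afdn turned positive with the length and GC offsets (0.15 and 0.19), with the replicate block or without it. The median gene stood at 0.13 in those fits. The number of all genes called was 667 higher with total counts alone. It was 2062 higher and 957 lower with the length and GC offsets, and 2030 and 996 when the replicate block was added to them. Partner genes called were 3 higher with total counts alone and 12 higher with the offsets, with or without the block. Leaving out 1 library at a time, all-gene calls ranged from 166 to 2346 higher and from 472 to 2616 lower, and partner calls from 2 to 10 higher and from 12 to 41 lower. Such fits leave 1 arm with 2 libraries.

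Same-numbered libraries did not deviate together throughout (correlations 0.154, -0.064 and 0.358 for numbers 1, 2 and 3). Knockout libraries 1 and 3 correlated best with the control library of their own number, and knockout library 2 with control library 3 (0.107). So few libraries cannot decide whether same-numbered ones were handled together, and the labels give them only a shared number. With the replicate block alone, 1480 genes were higher and 1732 lower, and 4 partner genes were higher and 26 lower. Of the partner and neighbour values, counted once per gene and alternative, 26 lost their call, 2 gained one and 400 kept their direction and side of the threshold. Depth limits Nectin4, Jam3, Tigit, Crtam and Cd6, which had too few reads to fit.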
